A study of Rattus norvegicus with 8 samples.

Results

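The report describes 10 genes of the glomerular endothelium, Nos3, Tie1, Tek, Kdr, Flt1, Pecam1, Cdh5, Ehd3, Emcn and Plvap, in isolated glomeruli of Dahl and SHR rats. All probe sets annotated to these symbols alone were taken, and 9 of the 10 genes were measured by 12 of the 31042 probe sets tested. No probe set of the annotation was named for Cdh5 alone, which encodes the junction protein VE-cadherin, so Cdh5 was not analysed here. Flt1 had 3 probe sets and Kdr had 2, and for these the brightest one by its mean over the 8 arrays was taken as the main probe set.

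The study's Dahl rats were Dahl salt-sensitive rats, a strain with spontaneous proteinuria and hypertension, and its SHR rats were spontaneously hypertensive rats without proteinuria. The paper describes its rats as male and on a low-salt diet in both strains, without a separate statement for those on the arrays. Glomeruli were hybridised at 4 and 6 weeks of age, with 2 Affymetrix Rat Genome 230 2.0 arrays per strain and age and 8 arrays in all. Each array is taken here as 1 rat, as the sample titles name biological replicates but no number of animals. There was no normotensive strain, and both strains are prone to hypertension, which the study dates to later ages than those on the arrays. Values are log2 signals as deposited, and a difference of 1 on this scale is a doubling. The labels name biological replicates but no litter, cage or processing batch, and strain and any difference in handling cannot be told apart.

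The glomerular capillary is lined by a thin, fenestrated endothelium that faces the podocytes across the basement membrane. Podocytes secrete vascular endothelial growth factor A (VEGF-A), which acts on the endothelial receptor tyrosine kinase Kdr (VEGFR-2), while Flt1 (VEGFR-1) also exists as a soluble form that binds the ligand. The angiopoietins act on Tek (Tie2), whose signalling is modulated by the related receptor Tie1. Nos3 makes nitric oxide, a vasodilator, in endothelial cells. Pecam1 and Cdh5 lie at the contacts between endothelial cells, although Pecam1 is also found on leukocytes and platelets. Emcn encodes endomucin, a sialomucin of the endothelial surface, and Ehd3 encodes a membrane-trafficking ATPase that in the kidney is found mainly in glomerular endothelium. Plvap forms the diaphragms of fenestrae and caveolae. Mature glomerular fenestrae mostly lack such diaphragms, so Plvap in the kidney also belongs to peritubular capillaries.

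The arrays had medians between 4.107 and 4.165, and their correlations over all probe sets ranged from 0.989 to 0.997 within a group and from 0.95 to 0.994 between groups. The preparations held glomeruli, with a mean log2 signal of 12.20 for the podocyte gene Nphs1, but also tubular RNA, with means of 13.45 for the proximal tubule gene Slc34a1 and 11.86 for Umod of the thick ascending limb. The second 6-week Dahl rat stood apart in having the least tubular signal, with 7.59 for Cubn, the endocytic receptor cubilin, against a mean of 10.21 over the 8 arrays. Vwf, a common endothelial marker, had a mean of 3.86, with 5.03 in the first 6-week Dahl rat, and Prox1 of lymphatic endothelium had a mean of 2.65. In whole glomeruli, fewer endothelial cells and less RNA per endothelial cell cannot be told apart.

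Promoter sequences are shown for Nos3, Tie1, Ehd3 and Plvap, the members whose Dahl and SHR values did not overlap. Each runs from 250 bases before to 50 bases after the start of the gene in RefSeq on GRCr8, and all 4 are on the minus strand. They lie at chr4:11706532-11706831 for Nos3, chr5:137304932-137305231 for Tie1, chr6:27417396-27417695 for Ehd3 and chr16:18231230-18231529 for Plvap. Capitals mark matches, on either strand, to CCGGAA or CAGGAA, letters found in sites of the ETS family of transcription factors, to which several regulators of endothelial genes belong.
Nos3: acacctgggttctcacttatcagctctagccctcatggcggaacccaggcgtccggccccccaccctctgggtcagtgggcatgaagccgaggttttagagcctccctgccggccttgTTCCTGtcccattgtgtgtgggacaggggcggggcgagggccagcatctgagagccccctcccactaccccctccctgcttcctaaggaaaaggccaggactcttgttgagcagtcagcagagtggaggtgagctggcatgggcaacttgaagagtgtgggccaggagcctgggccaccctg
Tie1: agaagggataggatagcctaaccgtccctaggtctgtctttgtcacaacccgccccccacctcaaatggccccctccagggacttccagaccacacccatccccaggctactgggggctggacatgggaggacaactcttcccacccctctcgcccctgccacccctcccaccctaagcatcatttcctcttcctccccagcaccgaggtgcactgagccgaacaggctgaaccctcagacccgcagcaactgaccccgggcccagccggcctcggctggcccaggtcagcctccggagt
Ehd3: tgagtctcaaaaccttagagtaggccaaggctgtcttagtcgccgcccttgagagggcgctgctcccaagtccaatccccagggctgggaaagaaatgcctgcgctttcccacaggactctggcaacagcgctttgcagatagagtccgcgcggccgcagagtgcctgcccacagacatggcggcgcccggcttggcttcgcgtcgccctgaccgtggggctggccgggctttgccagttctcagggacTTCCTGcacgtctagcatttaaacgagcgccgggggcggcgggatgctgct
Plvap: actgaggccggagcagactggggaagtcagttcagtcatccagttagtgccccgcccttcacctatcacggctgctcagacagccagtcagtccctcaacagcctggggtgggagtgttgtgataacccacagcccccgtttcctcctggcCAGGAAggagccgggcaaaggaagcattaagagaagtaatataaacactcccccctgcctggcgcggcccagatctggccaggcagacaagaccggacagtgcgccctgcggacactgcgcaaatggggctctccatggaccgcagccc
Nos3, Ehd3 and Plvap each held 1 match and Tie1 held 0. Sequences were given for 7 of the 10 members, also Kdr, Flt1 and Emcn, and 5 of these 7 held CCGGAA or CAGGAA, with 2 matches each in Kdr and Emcn. Of all 33469 promoters of this length, 40% held one of them. The letters GGGCGG, found in sites of the SP and KLF families, were in 6 of the 7, against 33.1% of all promoters, and AGATAA of the GATA family was in 0 of the 7, against 11.6%. The GC content of the windows ranged from 47% in Emcn to 72.7% in Flt1. A match is a run of letters only and no binding was measured.

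Over both ages, 5 of the 9 measured endothelial genes were higher in Dahl than in SHR glomeruli and 0 were lower. The 5 were Nos3, Ehd3, Tie1, Plvap and Emcn, and all 9 had a positive difference. The median of the 9 differences was 0.38 on the log2 scale, against a median of -0.053 over all probe sets. Of all probe sets, 10.6% were called higher in Dahl and 24.2% were called lower (adjusted p under 0.05, limma with Benjamini-Hochberg adjustment over all 31042 probe sets). All main probe sets of the members lay above the median signal. In a fit of only the 15521 probe sets above that median, 2952 (19%) were called higher and 1824 lower. The 4 others, Pecam1, Flt1, Kdr and Tek, had differences of 0.50, 0.38, 0.30 and 0.29 that did not pass. The 95% intervals were 0.09 to 0.91 for Pecam1, 0.09 to 0.68 for Flt1, 0.01 to 0.60 for Kdr and -0.06 to 0.64 for Tek. The calls rested on few rats. Each fit without 1 rat lost some or all of these 5 calls, and such a fit leaves 1 rat in a group. With 1 rat left out, the difference ran from 1.09 to 1.48 for Nos3 and from 0.46 to 0.64 for Tie1. It ran from 0.69 to 1.01 for Ehd3, from 0.27 to 0.39 for Plvap and from 0.24 to 0.35 for Emcn.

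**Figure D1:**
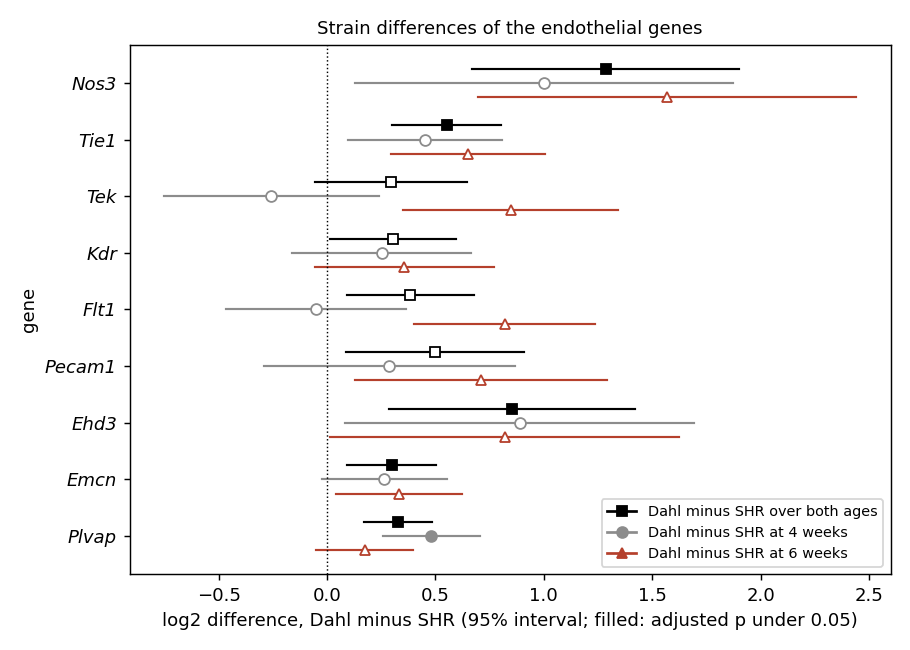
Dahl minus SHR difference in log2 signal of the 9 measured genes over both ages (black squares), at 4 weeks (grey circles) and at 6 weeks (red triangles), with 95% intervals from the fit. Filled symbols have an adjusted p under 0.05: 5 genes over both ages, Plvap at 4 weeks and no gene at 6 weeks.

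Without a model, the 4 Dahl values all lay above the 4 SHR values in 4 of the 9 genes, Nos3, Tie1, Ehd3 and Plvap, as they did in 8.15% of all probe sets. The second 6-week Dahl rat was the highest of the 8 rats in 7 of the 9 genes, all but Ehd3 and Plvap. The second 4-week SHR rat was the lowest in 7 of the 9, all but Tek and Flt1. The 3 probe sets with the highest mean signal, those of Emcn, Kdr and Tek, had the 3 smallest differences over both ages. Signals of different probe sets are not a measure of relative RNA amount, and the part of signal in the size of the differences was not tested.

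**Figure D2:**
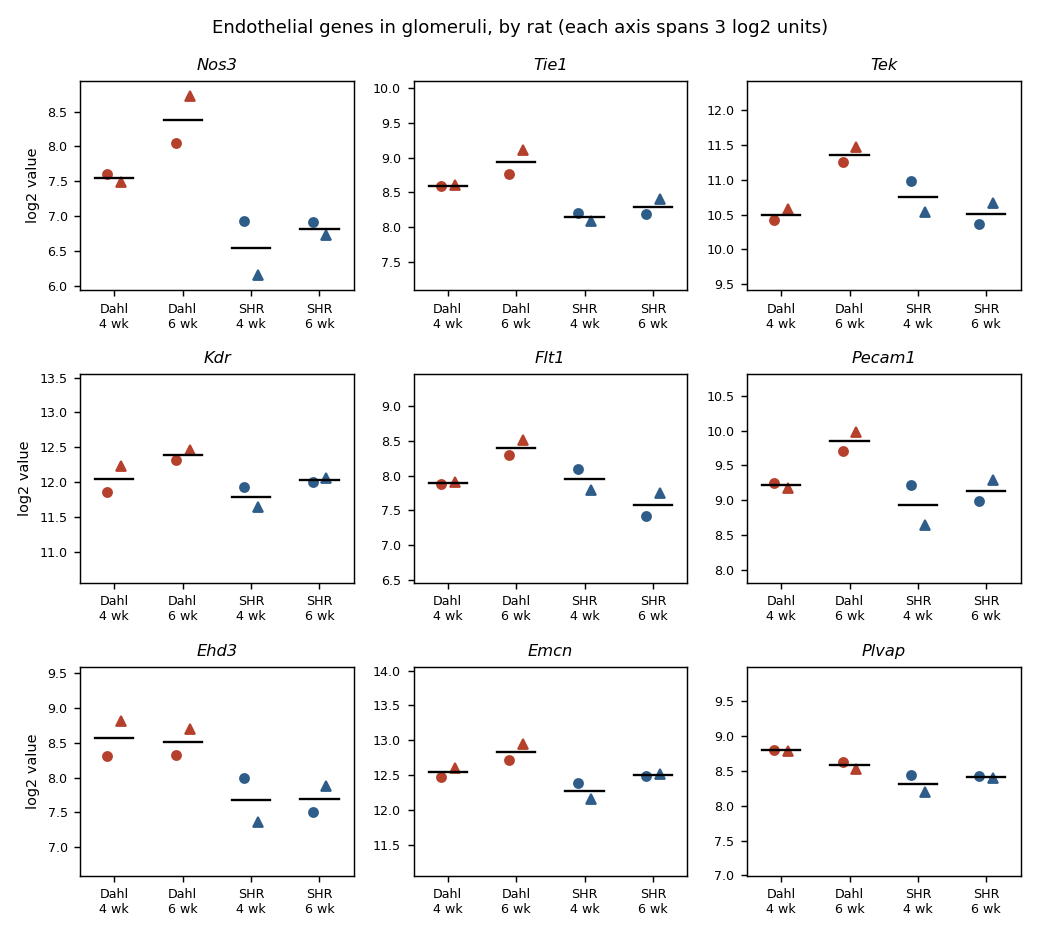
Log2 signal of the main probe set of each of the 9 measured genes in every rat, by strain and age, with circles for replicate 1, triangles for replicate 2 and bars for the mean of the 2 rats, on axes that each span 3 log2 units. The Dahl rats lie above all SHR rats for Nos3, Tie1, Ehd3 and Plvap, and the strains are mixed at 4 weeks for Tek, Kdr, Flt1 and Pecam1.

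Nos3, the endothelial nitric oxide synthase, had the largest difference of the 9. Its log2 signal was 7.61 and 7.48 in the 4-week Dahl rats and 8.05 and 8.72 in the 6-week Dahl rats. In SHR it was 6.93 and 6.15 at 4 weeks and 6.91 and 6.72 at 6 weeks. Every Dahl rat was above every SHR rat, and within SHR the lowest value was that of the second 4-week rat. Over both ages the mean was 7.96 ± 0.56 in Dahl and 6.68 ± 0.36 in SHR (SD, n = 4 each). Nos3 was 2.44-fold higher in Dahl (log2 difference 1.28 ± 0.24 SE, adjusted p = 0.0243). The difference was 1.00 at 4 weeks and 1.57 at 6 weeks, neither past the threshold alone (adjusted p = 0.111 and 0.0738).

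Nos3 differed from the 8 other members when set against other endothelial genes. The score of other endothelial markers, the median deviation of 25 genes that are not members, was subtracted from each rat's Nos3 deviation. The remainder was 0.30 and 0.031 in the 4-week Dahl rats, 0.35 and 0.59 in the 6-week Dahl rats, -0.18 and -0.54 in the 4-week SHR rats and -0.055 and -0.47 in the 6-week SHR rats. All Dahl rats were again above all SHR rats, as after the same subtraction in 0.979% of all probe sets. Nos3 was the only one of the 9 members for which this held. Some of the markers themselves had differences between the strains as large as that of Nos3, such as Calcrl at 1.63 and Thbd at 1.51. The gap between the lowest Dahl rat and the highest SHR rat was small, at 0.031 against -0.055. For Kdr and Emcn all Dahl remainders were below all SHR remainders, as in 65.4% of all probe sets. The subtraction lowered the median difference of all probe sets to -0.71, with 664 called higher and 24963 lower in place of 3283 and 7504, and a remainder therefore says how a gene moved against these markers only.

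Tie1 and Tek are the receptors of the angiopoietin system. The Tie1 signal was 8.59 and 8.60 in the 4-week Dahl rats, 8.77 and 9.12 in the 6-week Dahl rats, 8.20 and 8.08 in the 4-week SHR rats and 8.18 and 8.40 in the 6-week SHR rats. The strains did not overlap, with 8.59 in the lowest Dahl rat and 8.40 in the highest SHR rat, a smaller gap than that between the 6-week Dahl rats. Tie1 was 1.47-fold higher in Dahl (8.77 ± 0.25 against 8.22 ± 0.13, log2 difference 0.55 ± 0.097 SE, adjusted p = 0.0221), the lowest adjusted p of the 9 main probe sets.

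Tek followed another order. At 4 weeks its signal was 10.42 and 10.57 in Dahl and 10.98 and 10.53 in SHR. At 6 weeks it was 11.25 and 11.47 in Dahl and 10.37 and 10.66 in SHR. The strains overlapped at 4 weeks, and both 6-week Dahl rats were above the 6 other rats. Tek differed between the strains by -0.26 at 4 weeks (adjusted p = 0.348). At 6 weeks it was 1.80-fold higher in Dahl (log2 difference 0.85), which did not pass (adjusted p = 0.0792). The 6-week difference minus the 4-week difference was 1.10 ± 0.27 (SE), the largest of the 9, and did not pass the test (adjusted p = 0.228).

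Kdr and Flt1 are the receptors for VEGF-A. The main Kdr probe set had signals of 11.86 and 12.23 in the 4-week Dahl rats, 12.31 and 12.46 in the 6-week Dahl rats, 11.94 and 11.64 in the 4-week SHR rats and 12.01 and 12.06 in the 6-week SHR rats. Only the first 4-week Dahl rat fell among the SHR values. Kdr was 1.23-fold higher in Dahl (12.22 ± 0.26 against 11.91 ± 0.19), which did not pass (adjusted p = 0.0863). Its second probe set was dim, at 3.17 to 3.24 in all rats, with a difference of -0.031 in the opposite direction (adjusted p = 0.177).

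The main Flt1 probe set had signals of 7.89 and 7.91 in the 4-week Dahl rats and 8.30 and 8.51 in the 6-week Dahl rats. In SHR it had 8.10 and 7.79 at 4 weeks and 7.41 and 7.75 at 6 weeks. The strains overlapped at 4 weeks, with a difference of -0.051 (adjusted p = 0.825). At 6 weeks both Dahl rats were above both SHR rats, and the 1.77-fold difference did not pass (log2 difference 0.82, adjusted p = 0.0663). Over both ages the difference was 0.38 ± 0.11 (SE, adjusted p = 0.0538).

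The 3 Flt1 probe sets differed in how far the strains were apart. The dimmest had 5.47 and 6.08 in the 4-week Dahl rats, 6.05 and 6.35 in the 6-week Dahl rats, 5.41 and 5.17 in the 4-week SHR rats and 4.79 and 4.58 in the 6-week SHR rats. All Dahl values were above all SHR values, and the difference of 1.00 ± 0.17 (SE) passed over both ages (adjusted p = 0.0205). The difference of 1.51 at 6 weeks passed as well (adjusted p = 0.0492). The middle probe set had 5.48 in the first 4-week Dahl rat, within the SHR range of 5.32 to 6.34, and its difference of 0.80 ± 0.36 (SE) did not pass (adjusted p = 0.129). All 3 had a positive difference over both ages. Which Flt1 transcripts each probe set reads was not given in the sources used here.

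**Figure D3:**
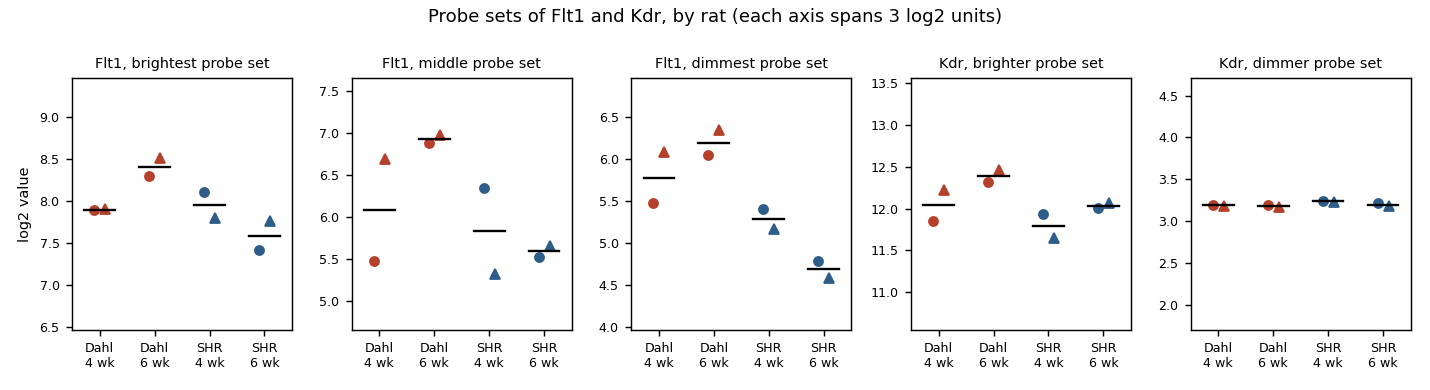
Log2 signal in every rat of the 3 Flt1 and 2 Kdr probe sets, by strain and age, with circles for replicate 1 and triangles for replicate 2. The dimmest Flt1 probe set separates all Dahl from all SHR rats, while the dim Kdr probe set stays between 3.17 and 3.24.

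Pecam1, the adhesion molecule of endothelial contacts, had signals of 9.25 and 9.18 in the 4-week Dahl rats, 9.71 and 9.99 in the 6-week Dahl rats, 9.22 and 8.64 in the 4-week SHR rats and 8.99 and 9.29 in the 6-week SHR rats. The strains overlapped by the second 6-week SHR rat, which was above both 4-week Dahl rats, and by the first 4-week SHR rat. The 1.41-fold difference did not pass (9.53 ± 0.38 against 9.03 ± 0.29, adjusted p = 0.0616). The leukocyte score, the median deviation of 12 leukocyte genes, was -1.15 and -1.67 in the 4-week SHR rats and between -0.019 and 1.03 in the 6 other rats. The part of leukocytes in the Pecam1 values was not tested.

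Emcn, encoding the surface sialomucin endomucin, had 12.47 and 12.61 in the 4-week Dahl rats, 12.72 and 12.94 in the 6-week Dahl rats, 12.39 and 12.16 in the 4-week SHR rats and 12.49 and 12.52 in the 6-week SHR rats. The strains were separate within each age, and the 6-week SHR rats exceeded the first 4-week Dahl rat. The 1.23-fold difference passed (12.69 ± 0.20 against 12.39 ± 0.16, log2 difference 0.30 ± 0.079 SE, adjusted p = 0.0444).

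Ehd3, the glomerular endothelial EHD protein, had 8.31 and 8.82 in the 4-week Dahl rats and 8.32 and 8.70 in the 6-week Dahl rats. The SHR rats had 7.99 and 7.36 at 4 weeks and 7.50 and 7.89 at 6 weeks. All Dahl rats were above all SHR rats, and in neither strain were the ages separate. Ehd3 was 1.81-fold higher in Dahl (8.54 ± 0.26 against 7.68 ± 0.30, log2 difference 0.85 ± 0.22 SE, adjusted p = 0.0422), and the difference was 0.89 at 4 weeks and 0.82 at 6 weeks.

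Plvap, the diaphragm protein, had 8.80 and 8.79 in the 4-week Dahl rats, 8.63 and 8.53 in the 6-week Dahl rats, 8.44 and 8.19 in the 4-week SHR rats and 8.42 and 8.40 in the 6-week SHR rats. Its order within Dahl was the reverse of most members, with both 6-week rats below both 4-week rats. Plvap was 1.25-fold higher in Dahl over both ages (8.69 ± 0.13 against 8.36 ± 0.11, log2 difference 0.33 ± 0.061 SE, adjusted p = 0.0247). At 4 weeks it was 1.40-fold higher (log2 difference 0.48 ± 0.087 SE, adjusted p = 0.0346), and at 6 weeks the difference was 0.17 (adjusted p = 0.210).

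By age, 1 of the 9 genes was called higher in Dahl at 4 weeks (Plvap), against 5.63% of all probe sets. The Plvap call was lost in most fits without 1 rat, which leave 1 rat in a group. At 6 weeks 0 of the 9 passed in limma, against 1.65% of all probe sets, with 7 of the 9 at an unadjusted p under 0.05, against 34.1% of all probe sets in either direction. The methods' t-test without adjustment called 3 of the 9 higher, against 5.23% of all probe sets. The median difference of the 9 was 0.29 at 4 weeks and 0.71 at 6 weeks. Both Dahl rats were above both SHR rats in 5 of the 9 at 4 weeks, against 20.8% of all probe sets, and in 9 of the 9 at 6 weeks, against 20.1%. The 4 genes mixed at 4 weeks were Tek, Kdr, Flt1 and Pecam1.

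The ages were compared within each strain. From 4 to 6 weeks in Dahl, 0 of the 9 passed in limma, against 0.0805% of all probe sets, with 4 at an unadjusted p under 0.05, against 8.76%. Both 6-week Dahl rats were above both 4-week Dahl rats in 7 of the 9, against 14.1% of all probe sets. The differences in these were 0.86 for Tek, 0.84 for Nos3, 0.63 for Pecam1, 0.51 for Flt1, 0.35 for Tie1, 0.35 for Kdr and 0.29 for Emcn. Both were below in 1 of the 9, Plvap at -0.21, against 20.3%, and Ehd3 differed by -0.055. In SHR, 0 of the 9 passed in limma, against 2.42% of all probe sets, and 0 of the 9 had an unadjusted p under 0.05, against 15.2%. Both 6-week SHR rats were above both 4-week SHR rats in 2 of the 9, Kdr and Emcn, against 21%, and below in 1 of the 9, Flt1, against 30.1%.

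The test of whether the strain difference itself changed with age called 0 of the 9, against 0.519% of all probe sets, with 2, Tek and Flt1, at an unadjusted p under 0.05, against 11%. The change was 1.10 for Tek, 0.87 for Flt1, 0.57 for Nos3, 0.42 for Pecam1, 0.20 for Tie1 and 0.10 for Kdr. It was 0.066 for Emcn, -0.069 for Ehd3 and -0.31 for Plvap. A difference between the ages in the size of the strain difference was thus not shown for any member. The age comparisons rest on 2 rats against 2.

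The VEGF and angiopoietin family was mixed. The list also holds the angiopoietin-like genes Angptl2 and Angptl4, which are not known as ligands of Tek or Tie1. Of its 10 genes, 3 were higher in Dahl over both ages, Angptl2 by 1.66 ± 0.29 (SE, adjusted p = 0.0223), Vegfd by 1.63 ± 0.18 (adjusted p = 0.00986) and Angpt2 by 0.92 ± 0.17 (adjusted p = 0.0249). Angpt2 can oppose Angpt1 at Tek, and Angpt1 itself was dim, with a mean of 3.43. Angptl4, an inhibitor of lipoprotein lipase, was lower by -1.90 ± 0.17 (adjusted p = 0.00764). Its signal was 8.86 and 8.53 in the 4-week SHR rats and between 4.01 and 4.83 in all 6 others, and the change of its strain difference with age passed (4.22 ± 0.35 SE, adjusted p = 0.0298). Vegfa, the podocyte ligand of Kdr and Flt1, did not differ past the threshold in its main probe set (mean 11.69, difference -0.019, adjusted p = 0.879). A dimmer Vegfa probe set, with a mean of 8.46, was higher in Dahl by 0.86 (adjusted p = 0.0389), so its probe sets disagreed.

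Of 11 coreceptors and regulators of these receptors, 3 were higher and 1 was lower. The semaphorin receptor Plxnd1 was higher by 1.05 ± 0.11 (adjusted p = 0.00903), and the TGF-beta coreceptor Eng and its partner Acvrl1 were higher by 0.66 ± 0.17 and 0.49 ± 0.13 (adjusted p = 0.0417 and 0.043). The lower one, Sema3a, was dim at a mean of 2.53 and differed by -0.071. Ptprb, a phosphatase that acts on Tek, differed by 0.46 and did not pass.

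In nitric oxide signalling, 4 of 14 genes besides Nos3 were higher and 2 were lower. The subunits of soluble guanylate cyclase, the receptor of nitric oxide, were among the higher ones, Gucy1b1 by 1.43 ± 0.15 (adjusted p = 0.00879) and Gucy1a1 by 0.75 ± 0.12 (adjusted p = 0.0193). Cav1, which binds and restrains Nos3, was higher by 0.91 ± 0.16 (adjusted p = 0.023), and the kinase Akt1, which phosphorylates Nos3, by 0.36 ± 0.076 (adjusted p = 0.0302). The lower ones, Pde5a and Gucy1a2, had mean signals of 2.07 and 2.19 and differed by -0.058 and -0.053. The other nitric oxide synthases were dim, with means of 2.22 for Nos1 and 1.38 for Nos2. Ddah1, which degrades an inhibitor of the synthases, differed by -0.84 and did not pass.

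Among 11 junction partners of Pecam1 and Cdh5, 7 were higher and 0 lower, with a median difference of 0.41. They included Mcam by 1.16 ± 0.17 (adjusted p = 0.0159), Jam2 by 0.85 ± 0.15 (adjusted p = 0.0216), Icam2 by 0.76 ± 0.10 (adjusted p = 0.0132) and Esam by 0.67 ± 0.12 (adjusted p = 0.0239). Among 9 genes of caveolae and the EHD family, 6 were higher and 0 lower. Besides Cav1, they included the membrane-repair protein Dysf by 0.82 ± 0.14 (adjusted p = 0.0216) and the caveolar coat protein Cavin2 by 0.65 ± 0.12 (adjusted p = 0.0222). The relatives of Ehd3 differed less than Ehd3, by 0.61 for Ehd2 and 0.40 for Ehd4, which passed (adjusted p = 0.0466 and 0.049), and by 0.043 for Ehd1. Differences between these paralogs were not tested.

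Of 21 endothelial transcription factors, 13 were higher and 0 lower, and all 21 had a positive difference, with a median of 0.71. Mef2c was higher by 1.12 ± 0.09 (adjusted p = 0.00636), the ETS factor Elk3 by 1.10 ± 0.14 (adjusted p = 0.0112), the hypoxia-inducible factor Epas1 by 0.76 ± 0.089 (adjusted p = 0.0107) and the flow-responsive factor Klf2, known to regulate Nos3, by 0.35 ± 0.039 (adjusted p = 0.00995). Of 25 other endothelial markers, 17 were higher and 0 lower, with a median of 0.66. Thbd, the thrombin receptor thrombomodulin, was higher by 1.51 ± 0.17 (adjusted p = 0.0095) and the calcitonin-family coreceptor Ramp2 by 1.14 ± 0.15 (adjusted p = 0.0121). Of 9 arterial, venous and lymphatic genes, 5 were higher, among them Lyve1 by 0.84 ± 0.12 (adjusted p = 0.0151) and the arterial connexins Gja5 and Gja4 by 0.63 and 0.74 (adjusted p = 0.0192 and 0.0265), and 1 was lower, Ackr1, which was dim and differed by -0.23. Some genes stand in more than 1 of these lists.

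**Figure D4:**
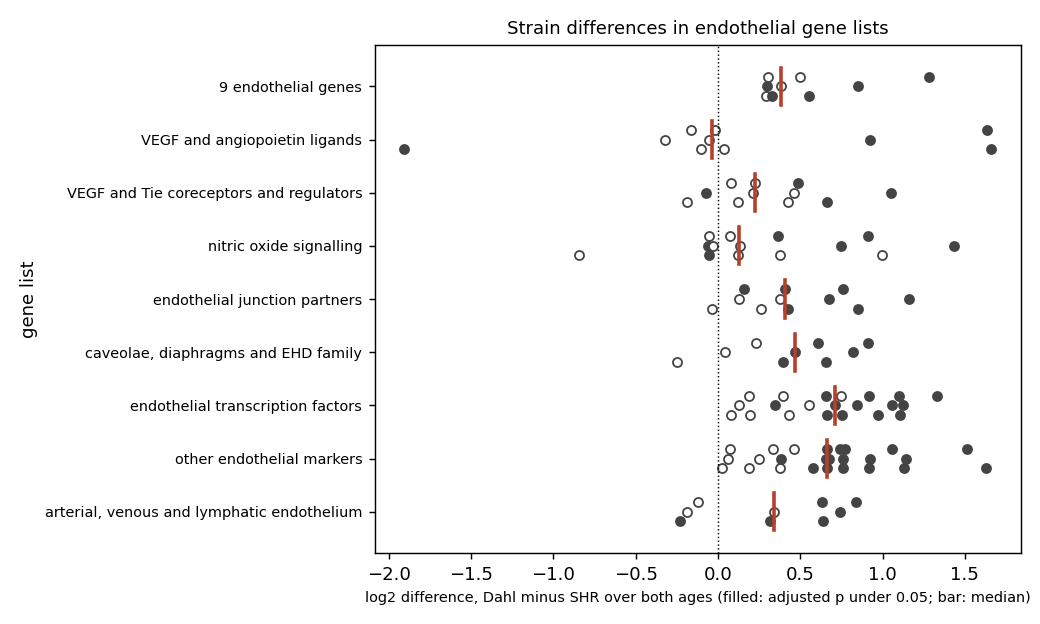
Dahl minus SHR difference in log2 signal over both ages of each measured gene (dots, filled where the adjusted p is under 0.05), by gene list, with a red bar at each list's median. The median is 0.38 for the 9 endothelial genes and 0.66 for the other endothelial markers.

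Podocyte and mesangial markers moved with the endothelial genes, and tubular markers moved the other way. A score was taken as the median deviation of a list's genes from their own means over the 8 arrays. The score of the 9 members ran from -0.032 to 0.59 in Dahl and from -0.41 to -0.12 in SHR. The podocyte score (10 genes, 5 higher and 0 lower) ran from -0.015 to 0.53 in Dahl and from -0.55 to -0.069 in SHR. The foot-process genes Synpo and Ptpro were higher by 0.59 and 0.69. The mesangial and smooth muscle score (11 genes, 7 higher and 0 lower) ran from 0.21 to 0.54 and from -0.48 to -0.18. Its genes Des and Acta2 were higher by 1.68 and 0.82. The proximal tubule score (15 genes, 0 higher and 3 lower) went the other way, from -1.94 to 0.063 in Dahl and from 0.22 to 0.96 in SHR, and the 3 lower genes were Dpep1, Cyp2e1 and Slc27a2. Its lowest value, -1.94, belonged to the second 6-week Dahl rat, the rat with the highest member score of 0.59, and its highest to the second 4-week SHR rat, which had the lowest member score of -0.41. The distal nephron list (10 genes) had 0 higher and 4 lower, Scnn1a, Calb1, Pvalb and Atp6v1b1, with a median of -0.86.

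The leukocyte list (12 genes) had 7 higher, among them the macrophage genes Csf1r and Aif1 by 1.31 and 1.90, and 2 lower, Cd3e and Cd79b by -0.44 and -0.072. At 4 weeks 6 were higher and 1 lower, with a median of 1.52, and at 6 weeks 0 were higher and 1 lower, with a median of 0.38. Its score ran from -0.019 to 1.03 in Dahl and from -1.67 to 0.44 in SHR. The platelet list (6 genes) had 0 higher and 1 lower, Ppbp by -0.078, with scores of -0.085 to 0.041 in Dahl and -0.050 to 0.061 in SHR, and its defining gene Gp9 was dim at a mean of 1.86. The erythroid list (5 genes) had 0 higher and 1 lower, the band 3 gene Slc4a1 by -2.72. The list's median difference was 0.23, with 3 of the 5 genes above 0, so Slc4a1 did not stand for the list. The part of the cell makeup of the preparations in the differences of the endothelial genes was not tested.

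**Figure D5:**
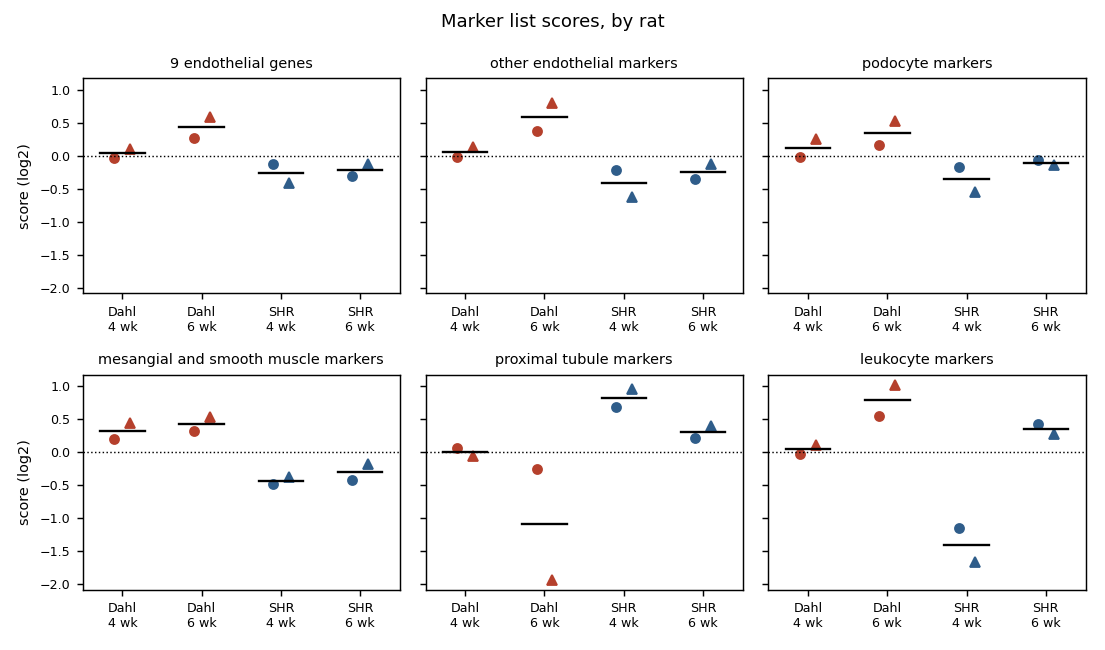
Score of each gene list (median log2 deviation from the 8-array mean) in every rat, by strain and age, for the 9 endothelial genes, the other endothelial markers and the podocyte, mesangial and smooth muscle, proximal tubule and leukocyte markers. The glomerular lists are higher in Dahl and the proximal tubule list is lower, with the second 6-week Dahl rat at -1.94.

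Across the 14217 genes named alone on a probe set, the gene nearest to the members' median deviation over the 8 arrays, apart from the members themselves, was Acvrl1, with a mean absolute difference of 0.051. It was followed by Scamp1 and Ino80c at 0.060 each, and by Plec and Dennd2c at 0.062 each. The genes nearest to Nos3 were Fes at 0.105, Klf4 at 0.110, Ier2 at 0.119, Thbd at 0.134 and Slc29a1 at 0.138. Of the members, Tie1 lay nearest to the members' median, at 0.045, and Nos3 farthest, at 0.41. These likenesses rest on the same 8 arrays and are descriptions.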

How the data were processed

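Glomerular RNA was hybridised to 8 Affymetrix arrays, each taken here as 1 rat. The authors deposited log2 signals per probe set. RMA and GCRMA stand in their processing notes, without versions, and the sources used here do not say which one the values come from. No depth applies to arrays, and their number limits the precision.

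Of 31099 probe sets, 57 controls were left out. Of the 31042 tested, 20826 named 1 gene, 436 several (not named here) and 9780 none. A gene's main probe set had the highest mean over all arrays. The 4 group means were fitted with limma 3.58.1 in R 4.3.3 without a filter, and p-values were adjusted by Benjamini-Hochberg over all probe sets at a threshold of 0.05. The difference over both ages is the mean of the differences at each age. SE and 95% intervals come from this fit, with 4 residual and 0.921 prior degrees of freedom. The code was tested on simulated data. The members and lists were chosen with earlier results of these data known. The genes named are the members, up to 4 genes of each list with the lowest p and any against the list, the 5 nearest in pattern, and others chosen after their values were seen. Alternatives were another variance model, normalization, centring, filter, replicate block, probe set rule and test, and each rat left out. P-values measure the spread between these rats only.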

Additional observations from a re-analysis of the deposited data

Results flagged for a closer look

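The mean signal of the main Flt1 probe set was higher at 6 than at 4 weeks in Dahl and lower in SHR. Neither difference passed (limma, adjusted p = 0.478 in Dahl and 0.411 in SHR). Both 6-week Dahl rats (8.30 and 8.51) were above both 4-week Dahl rats (7.89 and 7.91), as in 14.1% of all probe sets. Both 6-week SHR rats (7.41 and 7.75) were below both 4-week SHR rats (8.10 and 7.79), as in 30.1%. Neither of the other Flt1 probe sets showed both of these orders. Their mean differences had the same signs as those of the main one. They were 0.85 in Dahl and -0.24 in SHR for the middle probe set, and 0.42 and -0.60 for the dimmest. None of these passed. For the main probe set, the Dahl minus SHR difference was larger at 6 weeks by 0.87 ± 0.23 (SE). The test of this change did not pass (limma, adjusted p = 0.256). The change was 1.09 ± 0.72 (SE) for the middle probe set and 1.02 ± 0.34 for the dimmest. Neither passed (limma, adjusted p = 0.755 and 0.367). With 2 rats per group, no group was large enough to look for single outlying rats.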

How the results depend on the processing

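Over both ages, 5 members were called. The count was 7 with an intensity trend and robust variance, against 11.8% of all probe sets called higher. It was 4 with quantile normalization (7.28% of all probe sets) and 6 with median centring (11.3%). It was 5 with only the probe sets above the median signal (19% of these) and 5 with the median over probe sets (11.9% of genes). With the lowest-mean probe set it was 6 (10.6% in the same fit). The unpaired t-test called 4 with adjustment (6.38%) and 4 without (10.4%). It was 1 (Nos3) after centring on other endothelial markers, against 2.14% of all probe sets called higher. That fit gave every member the same SE, 0.22, so its calls do not use each gene's own spread between rats. With 1 rat left out, some or all of the 5 calls were lost. Of 18 alternatives, the call was lost in 6 for Nos3, 5 for Tie1, 5 for Plvap, 10 for Ehd3 and 11 for Emcn, beside the reversals given next. After that centring, the differences were 0.63 for Nos3, 0.20 for Ehd3 and reversed to -0.10 for Tie1, -0.36 for Tek, -0.35 for Kdr, -0.27 for Flt1, -0.15 for Pecam1, -0.36 for Emcn and -0.33 for Plvap, as its construction shifts all probe sets by a like amount. Kdr also reversed, to -0.031, with its lowest-mean probe set. Over all probe sets, quantile normalization gave 2261 higher and 2479 lower calls in place of 3283 and 7504.

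At 4 weeks, 1 member was called. The count was 0 after centring on other endothelial markers, against 2.33% of all probe sets called higher. It was 0 by the unpaired t-test with adjustment, which called 0 of all probe sets. Without adjustment the same test called 1, Tie1 and not Plvap, against 7.33% of all probe sets called higher. The Plvap call was lost in most fits without 1 rat. At 6 weeks, 0 were called. The count was 4 with trend and robust variance and 4 with only the probe sets above the median signal, where the higher calls over all probe sets were 5.6% and 6.39% in place of 1.65%. It was 2 after that centring, Nos3 higher and Plvap lower. There 325 of all 31042 probe sets were called higher and 24698 lower, so a lower call was that of most probe sets. It was 1 with the lowest-mean probe set (1.65% called higher in the same fit). The unpaired t-test without adjustment called 3 (5.23% of all probe sets). From 4 to 6 weeks in Dahl the unpaired t-test without adjustment called 3 higher in place of 0, against 2.04% of all probe sets. In SHR, and for the change of the strain difference with age, the count was 0 under each alternative run. The cause of these changes was not tested.

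The replicate numbers share only a number. Correlations of same-numbered deviations between groups ran from -0.225 to 0.236, and the labels name no pairing. With the replicate number as a block, 3 members were called over both ages (Nos3, Tie1 and Plvap), and the counts of the other comparisons were as without it.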
